A study of Mus with 10 samples.

Results

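The mitochondrial ribosomal proteins are the protein subunits of the ribosome that works inside mitochondria. They were examined in liver type 1 innate lymphoid cells (ILC1s), which are tissue-resident lymphocytes, with and without the receptor NKp46. Members were taken by symbol, as every row of the gene count table that begins with Mrpl or Mrps followed by a digit and holds at least 100 counts summed over the 10 libraries. Of 24564 genes in the table, 78 matched the symbol pattern and 77 reached the minimum count, 49 named Mrpl and 28 named Mrps. The row left out was *Mrps36*, with 40 counts in all, whose product is now counted as a component of a tricarboxylic acid cycle enzyme. By the place of the protein in the ribosome, 51 members belong to the large subunit and 26 to the small one, since the products of *Mrps18a* and *Mrps30* sit in the large subunit despite their names.

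The mitochondrial ribosome translates the few messages encoded by mitochondrial DNA, which specify core subunits of the respiratory chain and of ATP synthase. All of its protein subunits are encoded in the nucleus, made in the cytosol and imported, and they assemble there on ribosomal RNAs transcribed from mitochondrial DNA. Some are homologues of bacterial ribosomal proteins and others exist only in mitochondria. In lymphocytes, mitochondrial translation is known for sustaining respiration when cells are activated and grow.

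By the study's methods, ILC1s were sorted from the livers of male or female C57BL/6 mice aged 6 to 8 weeks. Ncr1gfp/gfp mice carry *gfp* in place of *Ncr1*, the gene of NKp46, in every cell, and their ILC1s were gated by GFP. Ncr1+/+ ILC1s were gated with an antibody against NKp46, so that the gate differs with the genotype. Each genotype had 5 libraries, each amplified from 2 ng of total RNA, and neither the labels nor the methods tie each library to 1 mouse, so that p-values measure the spread between these samples, which may be technical.

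Total counts lay between 15796253 and 22623133 per library. *Ncr1* itself had 141 to 356 CPM (a library's counts scaled to a common total by TMM) in the Ncr1gfp/gfp libraries and 1913 to 2144 CPM in the Ncr1+/+ libraries. Of the ILC1 markers, *Itga1*, an integrin, had 928 to 1012 CPM in Ncr1gfp/gfp and 732 to 805 CPM in Ncr1+/+ libraries and so differed with the genotype (log2 fold change 0.32, adjusted p = 0.000481, edgeR's quasi-likelihood test). Of the 7 ILC1 markers tested, 4 had a lower fitted level in Ncr1gfp/gfp ILC1s, *Ncr1* among them. *Eomes*, a transcription factor of NK cells, had 5.06 to 17.7 CPM in Ncr1gfp/gfp and 5.85 to 8.35 CPM in Ncr1+/+ libraries. Of the 5 NK cell markers tested, 3 had a higher and 2 a lower fitted level in Ncr1gfp/gfp ILC1s, none under an adjusted 0.05. Log2 fold changes ran from -0.77 for *Ly6c2* to 0.52 for *Eomes*, with 0.27 for *Itga2*. All 5 macrophage markers had a lower fitted level in Ncr1gfp/gfp ILC1s, none under an adjusted 0.05. Their sums were 8.50 to 30.0 CPM against 11.6 to 39.9 CPM. The Y-linked *Ddx3y* had 133 to 171 CPM and *Xist*, which marks female cells, 0 to 1.09 CPM over the 10 libraries. By these genes, all 10 libraries had the pattern of male cells. Of the 5 T cell markers tested, 3 had an adjusted p-value under 0.05 (edgeR's quasi-likelihood test, Benjamini-Hochberg adjustment). All 5 had a higher mean in Ncr1gfp/gfp ILC1s, with a summed level of 632 to 835 CPM against 460 to 579 CPM. Most of this sum was *Cd3g*, with means of 687 CPM in Ncr1gfp/gfp and 501 CPM in Ncr1+/+ libraries. *Cd3e*, *Cd3d*, *Cd8a* and *Cd4* averaged 21.1, 13.6, 19.4 and 2.31 CPM against 5.72, 6.62, 6.69 and 1.95 CPM. The 6 hepatocyte markers summed to between 1.74 and 58.2 CPM in Ncr1gfp/gfp libraries and between 1.68 and 30.7 CPM in Ncr1+/+ libraries, highest in Ncr1gfp/gfp replicate 3 and Ncr1+/+ replicate 1. The 3 B cell markers stayed at or below 1.63 CPM in sum. The part of any of these cells in the values of the ribosomal genes was not tested.

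The level of the whole group was compared first. The 77 genes together took 0.144% ± 0.00236 of all counts in Ncr1gfp/gfp libraries and 0.144% ± 0.00325 of those in Ncr1+/+ libraries (SD, n = 5 each). Their summed level was 1443, 1485, 1427, 1433 and 1412 CPM in Ncr1gfp/gfp replicates 1 to 5. It was 1426, 1457, 1455, 1410 and 1464 CPM in Ncr1+/+ replicates 1 to 5. The ranges overlapped, and the ratio of the means was 0.998. As CPM are relative levels of bulk samples, they do not measure the number of cells or the RNA per cell.

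The balance between the subunits was also similar in size. The large subunit genes summed to 1021 ± 21.4 CPM in Ncr1gfp/gfp and 1027 ± 16 CPM in Ncr1+/+ ILC1s, and the small subunit genes to 420 ± 23.0 and 416 ± 10.1 CPM (SD, n = 5 each). Per kb of exon, the large subunit genes held 2.38 ± 0.168 times the sum of the small subunit genes in Ncr1gfp/gfp ILC1s and 2.42 ± 0.0724 times in Ncr1+/+ ILC1s. The highest ratio, 2.67, was that of Ncr1gfp/gfp replicate 1, and the other 4 libraries of that genotype lay between 2.25 and 2.38.

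**Figure D1:**
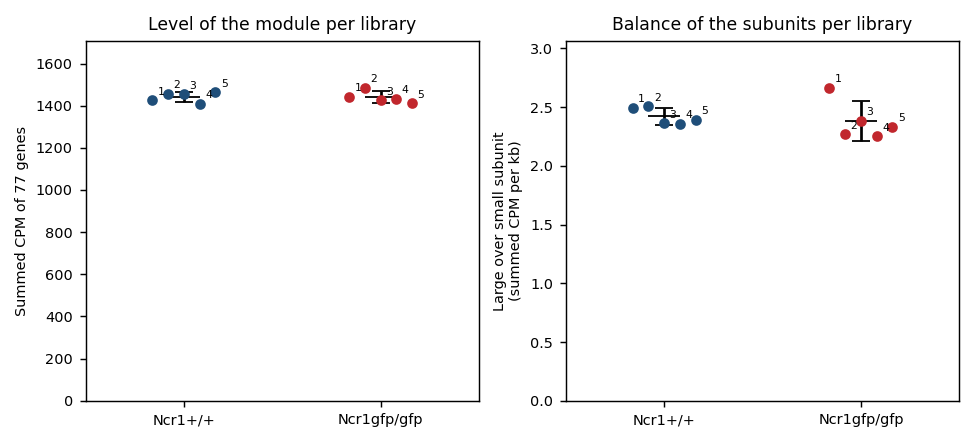
Summed CPM of the 77 mitochondrial ribosomal protein genes (left) and the ratio of the large to the small subunit genes in summed CPM per kb (right), with 1 point per library numbered by replicate and bars for the mean and SD. The summed level lay between 1410 and 1485 CPM in all 10 libraries, and the ratio of Ncr1gfp/gfp replicate 1, 2.67, stood above the others.

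Each gene was then compared between the genotypes in a fit over all 11463 genes that passed the expression filter, among them all 77 members. Calls needed a fold of more than 1.5 or less than 0.7 together with an adjusted p-value under 0.05, as the study's methods set them. None of the 77 members was called, where 0.733% of all tested genes were called. None had an adjusted p-value under 0.05 at any fold change, where 1.35% of all tested genes did (edgeR's quasi-likelihood test). At an unadjusted p-value under 0.05 there was 1 member, *Mrps5*, or 1.30% of the group, where 11.4% of all tested genes passed, and DESeq2 likewise gave 0 members under an adjusted 0.05. No member had CPM values without overlap between the genotypes, where 3.11% of all tested genes had. These shares are small numbers of genes in a group of 77.

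The fold changes of the group were centred on 0. In Ncr1gfp/gfp ILC1s, 39 members had a lower and 38 a higher fitted level than in Ncr1+/+ ILC1s, and 50.6% lower compares with 49.3% of all tested genes. The median log2 fold change was -0.00078 over the members and 0.0027 over all tested genes. The quartiles of the members were -0.09 and 0.12, those of all tested genes -0.11 and 0.10. A fitted change of less than 1.2-fold in either direction was found for 73 of the 77 members and for 80.5% of all tested genes.

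How large a change the data leave possible depends on the depth behind each gene. The standard error of the log2 fold change ran from 0.07 for *Mrpl24*, with 13461 counts, to 0.80 for *Mrpl23*, with 105 counts, with a median of 0.14. The whole 95% interval lay between 0.7-fold and 1.5-fold for 61 members, or 79.2%, against 68.5% of all tested genes. For the other 16 members, among them *Mrps5*, *Mrpl2*, *Mrps18b*, *Mrps18c*, *Mrps28* and *Mrpl23*, the interval reached past at least 1 of these limits. Among the 71 members with at least 1000 counts, the fitted log2 fold changes ran from -0.23 to 0.43.

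**Figure D2:**
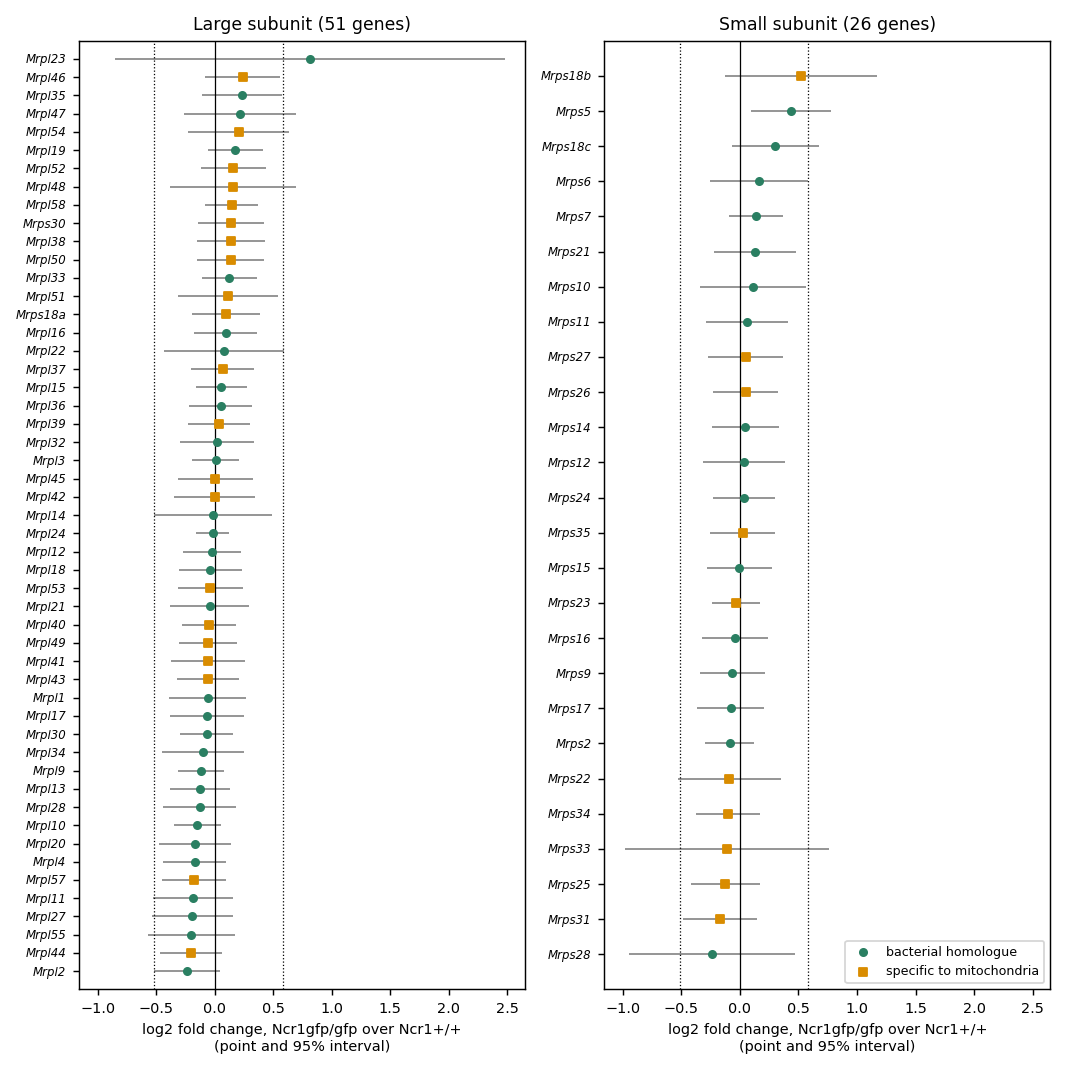
Log2 fold change of each of the 77 genes, Ncr1gfp/gfp over Ncr1+/+, for the large (left) and small (right) subunit. Bars are 95% intervals derived from the F statistic of edgeR's quasi-likelihood test. Dotted lines mark 0.7-fold and 1.5-fold, and the interval of *Mrps5* is the only one that lies wholly to the right of 0.

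The subunits and the evolutionary classes were close to each other. In the large subunit, 27 of 51 genes had a lower fitted level, with a median log2 fold change of -0.01, and in the small subunit 12 of 26, with a median of 0.03. The 46 homologues of bacterial ribosomal proteins had a median of -0.01 and the 31 proteins specific to mitochondria a median of 0.02. Split both ways, the medians were -0.04 and 0.07 for the bacterial and the specific proteins of the large subunit, with 19 of 30 and 8 of 21 genes lower. In the small subunit they were 0.04 and -0.06, with 6 of 16 and 6 of 10 genes lower. No gene of any of these classes passed the adjusted threshold.

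For comparison, genes named for cytosolic ribosomal proteins were taken by symbol, as Rpl or Rps followed by a digit. This pattern also fits genes of other proteins, such as the Rps6k kinases, and misses some subunits, such as *Rpsa*. The 89 tested genes had a median log2 fold change of -0.03, with 1 gene, *Rps4l*, under the adjusted threshold. The 81 tested nuclear genes named for the respiratory chain and ATP synthase had a median of -0.02 and none under it. Mitochondrial translation feeds these complexes. The genes were taken by symbol, from the Nduf, Sdh, Uqcr, Cox and Atp5 families, which also fits assembly factors such as the Ndufaf genes. Single log2 fold changes ran from -0.24 to 0.81 among the mitochondrial ribosomal genes, from -0.41 to 0.32 among the respiratory chain genes and from -0.66 to 1.38 among the cytosolic ribosomal genes.

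**Figure D3:**
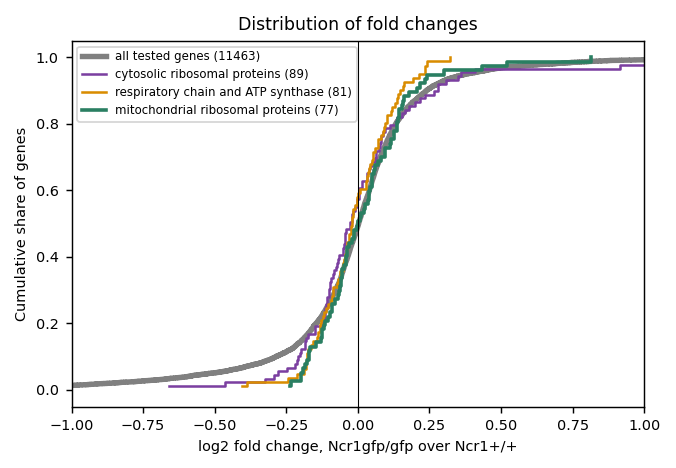
Cumulative share of genes by log2 fold change, Ncr1gfp/gfp over Ncr1+/+, with the axis limited to between -1 and 1. The group curves show 77 mitochondrial ribosomal protein genes and, taken by symbol, 89 cytosolic ribosomal and 81 respiratory chain or ATP synthase genes. A further curve shows all 11463 tested genes. The 3 groups cross the middle of the plot close to 0, with medians of -0.00078, -0.03 and -0.02 in that order.

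Among the small subunit genes, *Mrps5* had the lowest p-value of the group. Its product is the counterpart of a bacterial protein near the channel through which the message enters, and the gene occupies positions 127413162 to 127429722 of chromosome 2, plus strand (the table does not name the build of its coordinates). It had 15.1, 14.7, 13.3, 20.0 and 11.7 CPM in Ncr1gfp/gfp replicates 1 to 5 and 9.53, 13.7, 10.4, 12.1 and 9.58 CPM in Ncr1+/+ replicates 1 to 5. The ranges overlapped, Ncr1gfp/gfp replicate 4 being the highest and replicates 3 and 5 lying within the Ncr1+/+ range. The log2 fold change was 0.43 (SE 0.16, 95% interval 0.09 to 0.77), with an adjusted p-value of 0.262 in edgeR's quasi-likelihood test. By a two-sided exact permutation test of the mean CPM, p = 0.0397 before any correction, and 2 of the 77 members but 10.7% of all tested genes had such a p-value under 0.05. Without Ncr1gfp/gfp replicate 4 the log2 fold change of *Mrps5* was 0.31.

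The paralogues of the S18 family had higher means in Ncr1gfp/gfp ILC1s, with none under the adjusted threshold. A bacterial ribosome has 1 S18 protein, whereas the mitochondrial ribosome holds several at different places. *Mrps18b*, a small subunit protein, is listed on chromosome 17 from 36047325 to 36053385 and had 5.21, 6.31, 4.29, 3.15 and 2.62 CPM in Ncr1gfp/gfp against 2.69, 3.00, 2.30, 3.08 and 3.97 CPM in Ncr1+/+ replicates 1 to 5. The first 3 Ncr1gfp/gfp libraries lay above the whole Ncr1+/+ range and the last 2 within it. The log2 fold change was 0.52 (SE 0.31, adjusted p = 0.571, edgeR's quasi-likelihood test), and the interval of the fold ran from 0.915 to 2.26.

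*Mrps18c*, the family member that holds the bacterial position in the small subunit, is on chromosome 5 from 101227778 to 101233486. It had 7.81, 11.5, 10.6, 9.58 and 8.81 CPM in Ncr1gfp/gfp against 8.30, 8.38, 9.35, 6.66 and 6.53 CPM in Ncr1+/+ replicates 1 to 5. The fold was 1.23 (95% interval 0.952 to 1.59, adjusted p = 0.566, edgeR's quasi-likelihood test), and the libraries overlapped. *Mrps18a*, whose product lies in the large subunit, is on the same chromosome as *Mrps18b*, from 46247953 to 46265857, and averaged 15.9 ± 2.00 CPM without and 14.9 ± 1.97 CPM with NKp46 (SD, n = 5 each). Its fold of 1.07 had a 95% interval of 0.875 to 1.31. *Mrps30*, the other large subunit protein with a small subunit name, had 28.1 ± 5.03 and 25.4 ± 4.25 CPM, a fold of 1.10 (0.908 to 1.34).

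*Mrps12* encodes the counterpart of the bacterial decoding centre protein at which resistance to streptomycin arises. Its mean was 11.2 ± 1.92 CPM in Ncr1gfp/gfp and 10.9 ± 1.71 CPM in Ncr1+/+ libraries (SD, n = 5 each), or 0.04 on the log2 scale, and the sign turned without Ncr1+/+ replicate 1, at -0.06. *Mrps28*, with 627 counts in all, had the most negative fitted value of the small subunit, -0.24 (SE 0.34), which was -0.069 without Ncr1+/+ replicate 4 and -0.40 without Ncr1+/+ replicate 5. Its libraries ran from 2.08 to 4.25 CPM in Ncr1gfp/gfp and from 1.74 to 5.05 CPM in Ncr1+/+ ILC1s, so that 1 range held the other. *Mrps31* had 13.4 ± 2.16 and 15.1 ± 2.20 CPM, a log2 fold change of -0.17 (SE 0.15) that was -0.074 without Ncr1gfp/gfp replicate 1.

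In the large subunit, *Mrpl2* lay lowest in fitted fold. Its product is the counterpart of a bacterial protein at the peptidyl transferase centre, where peptide bonds are made, and the gene is on chromosome 17 from 46783170 to 46787081. It had 10.8, 11.1, 14.5, 13.8 and 14.8 CPM in Ncr1gfp/gfp and 15.6, 15.5, 15.2, 14.3 and 15.7 CPM in Ncr1+/+ replicates 1 to 5. Ncr1gfp/gfp replicates 1 and 2 were the lowest, and only Ncr1+/+ replicate 4 fell among the Ncr1gfp/gfp values. The log2 fold change was -0.23 (SE 0.14, 95% interval -0.52 to 0.05), with an adjusted p-value of 0.551 in edgeR's quasi-likelihood test and p = 0.0238 in the two-sided exact permutation test before any correction.

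*Mrpl44*, which encodes a subunit with a ribonuclease III-like fold, had 18.4, 13.5, 18.8, 15.9 and 19.9 CPM in Ncr1gfp/gfp and 22.4, 18.4, 19.9, 20.3 and 18.3 CPM in Ncr1+/+ replicates 1 to 5. The libraries overlapped, and the log2 fold change was -0.20 (SE 0.13). *Mrpl55* and *Mrpl27*, both homologues of bacterial proteins, had log2 fold changes of -0.20 (SE 0.18) and -0.19 (SE 0.17). On the other side, *Mrpl35* had 14.2 ± 3.56 CPM in Ncr1gfp/gfp and 12 ± 1.49 CPM in Ncr1+/+ ILC1s, a log2 fold change of 0.24 (SE 0.17) that was 0.07 without Ncr1gfp/gfp replicate 1.

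*Mrpl46* and the small subunit gene *Mrps11* lie head to head on chromosome 7, on opposite strands, with 41 bases between them. *Mrpl46* (85920227 to 85927975) had 12.6, 15.5, 10.2, 13.9 and 13.8 CPM in Ncr1gfp/gfp and 10.3, 10.2, 10.5, 11.2 and 13.8 CPM in Ncr1+/+ replicates 1 to 5. *Mrps11* (85928017 to 85937874) had 9.31 ± 1.21 CPM in Ncr1gfp/gfp and 8.95 ± 1.14 CPM in Ncr1+/+ libraries (SD, n = 5 each). The log2 fold changes were 0.24 (SE 0.15) and 0.06 (SE 0.17), and the libraries overlapped for both genes.

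Members with roles beyond the core of the ribosome had values close to the group. *Mrpl12*, whose product forms the stalk that recruits translation factors, had 18.3 ± 2.11 CPM in Ncr1gfp/gfp and 18.6 ± 1.28 CPM in Ncr1+/+ ILC1s, a fold of 0.985 (95% interval 0.829 to 1.17) whose sign turned when some libraries were left out. *Mrpl58*, also known as Ict1, encodes a subunit that can release peptides from stalled ribosomes. It had 32.9, 27.7, 31.7, 29.7 and 28.7 CPM in Ncr1gfp/gfp and 23.6, 24.6, 25.3, 31.4 and 31.3 CPM in Ncr1+/+ replicates 1 to 5, a fold of 1.11 (0.945 to 1.29). Ncr1+/+ replicates 4 and 5 lay among the Ncr1gfp/gfp values.

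**Figure D4:**
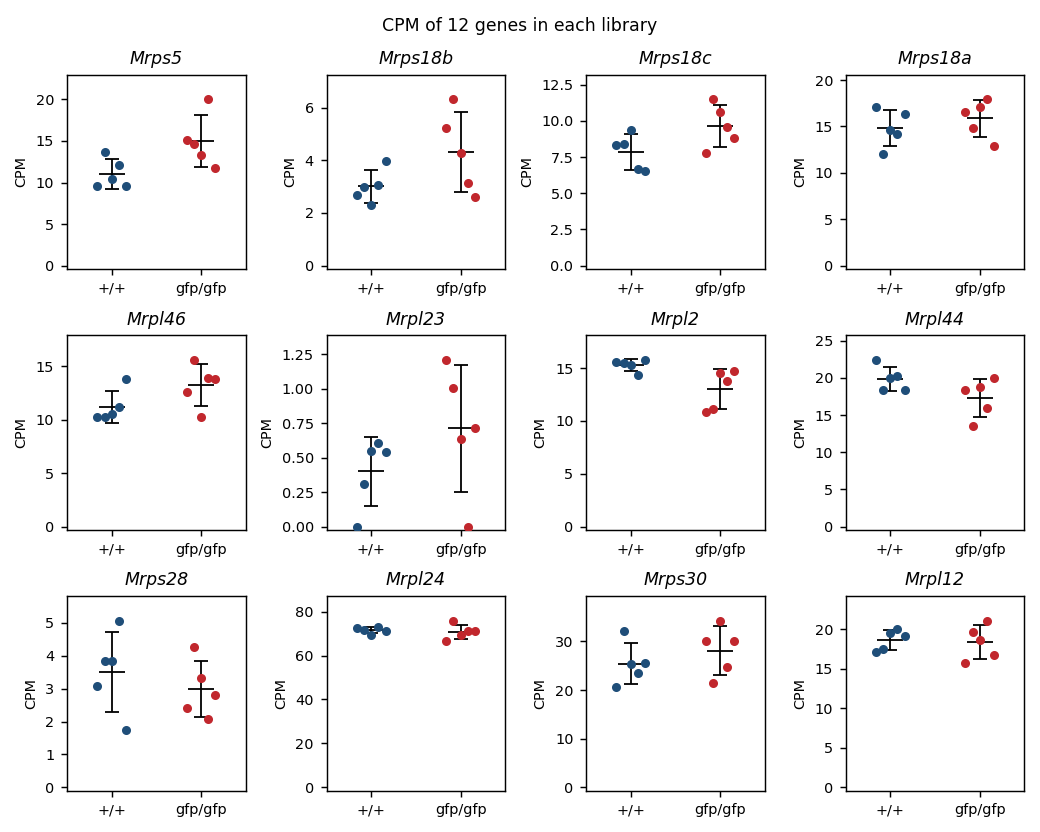
CPM of 12 genes in each library, with Ncr1+/+ at the left and Ncr1gfp/gfp at the right of each panel and bars for the mean and SD (n = 5). The libraries of the genotypes overlap in each panel, including *Mrps5* and *Mrpl2*, and *Mrpl24* varies least around its mean.

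The subunits of 1 particle differed widely in CPM per kb of exon, which divides CPM by the total exon length listed for each gene. *Mrpl17* (named after its values were seen) is listed with 6712 bases and ranked 74 of 77 per kb in Ncr1+/+ ILC1s. Its 20.1 CPM lay above the member median of 17.9 CPM. How far the listed lengths set the order was not tested. In Ncr1+/+ ILC1s, the highest per kb of exon were *Mrpl24* at 75.4 ± 1.57, *Mrpl52* at 54.6 ± 6.98, *Mrpl33* at 52.7 ± 2.75, *Mrpl30* at 36.6 ± 4.29 and *Mrpl9* at 32.8 ± 4.65 CPM per kb (SD, n = 5), all of the large subunit. *Mrpl52* and *Mrpl33* did not differ beyond their spread, nor did *Mrpl30* and *Mrpl9*, nor *Mrpl9* and the next gene, *Mrps26* of the small subunit, at 30.4 ± 4.63 CPM per kb (named after its values were seen). The lowest were *Mrps18b* at 2.66 ± 0.549, *Mrps33* at 2.49 ± 0.963 and *Mrpl23* at 0.690 ± 0.433 CPM per kb, of which the first 2 did not differ beyond their spread. Nor did *Mrps18b* and the next gene, *Mrpl17*, at 3.00 ± 0.583 CPM per kb. The highest was 30.3 times the second lowest, *Mrps33*, and 109 times *Mrpl23*, which rests on 105 counts. The median of the members, 14.3 CPM per kb, stood at percentile 57.1 of all tested genes, whose median was 11.3 CPM per kb, and 45 of 77 members lay above it. In Ncr1gfp/gfp ILC1s the genes named as highest in Ncr1+/+ ILC1s had 74.6, 61.0, 57.5, 34.9 and 30.3 CPM per kb in the same order. *Mrps26*, at 31.4 CPM per kb, lay above *Mrpl9* there. *Mrps18b* had 3.82 CPM per kb in Ncr1gfp/gfp ILC1s and was not among the lowest 3. It lay above *Mrpl17* at 2.88 and *Mrps25* at 3.08 CPM per kb, the latter also named after its values were seen.

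**Figure D5:**
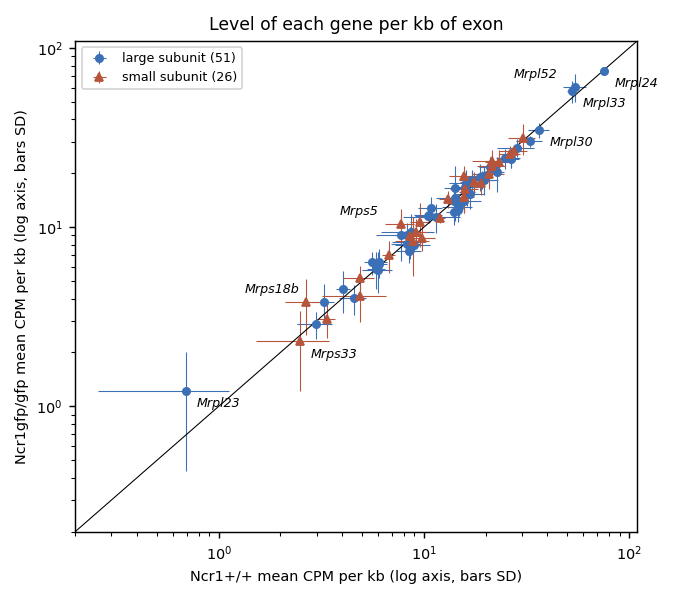
Mean CPM per kb of each of the 77 genes in Ncr1+/+ (horizontal) and Ncr1gfp/gfp ILC1s (vertical) on log axes, with bars for the SD over 5 libraries and a line of equal level. The genes run from *Mrpl23* to *Mrpl24*, at 0.690 and 75.4 CPM per kb in Ncr1+/+ ILC1s, and lie along the line.

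*Mrpl24*, the counterpart of a bacterial protein that starts the assembly of the large subunit, was also the steadiest. It had 66.5, 75.6, 69.5, 71.2 and 71.0 CPM in Ncr1gfp/gfp and 72.5, 71.6, 69.2, 73.1 and 71.1 CPM in Ncr1+/+ replicates 1 to 5. Its coefficient of variation was 4.67% and 2.09%, and its fold was 0.990 (95% interval 0.898 to 1.09). *Mrpl24* also had the most counts of the members, 13461 against a median of 3444. Counting error falls with counts, and the part of depth in its low variation was not tested. Over all members, the median coefficient of variation was 15.1% in Ncr1gfp/gfp and 13.9% in Ncr1+/+ ILC1s, where counting error alone would give medians of 5.69% and 5.33%. *Mrpl24* overlaps *Rrnad1* on the opposite strand. In all, 12 members overlap another counted gene, 9 of them on the opposite strand, and the library kit does not mark strand, so that reads of such pairs could not be told apart.

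The lowest member, *Mrpl23*, encodes a protein at the exit of the peptide tunnel and is listed on chromosome 7 from 149719022 to 149726647. With 105 counts it lay just inside the minimum of 100, and it had 1.21, 1.01, 0.635, 0 and 0.714 CPM in Ncr1gfp/gfp and 0, 0.309, 0.55, 0.606 and 0.544 CPM in Ncr1+/+ replicates 1 to 5. A library of each genotype held no count, where 3 counts correspond to between 0.133 and 0.190 CPM, and the fold of 1.76 had an interval of 0.554 to 5.58. The log2 fold change of *Mrpl23* was 0.81, ran from 0.51 to 1.13 with each library left out and was 0.14 with limma-voom and quality weights. A difference was not detectable at this depth. *Mrps33*, of the small subunit, likewise had 0.953 to 4.34 CPM over the 10 libraries and a fold of 0.924 (0.505 to 1.69).

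The RefSeq annotation names pseudogenes of 5 members, namely *Mrpl23*, *Mrpl27*, *Mrpl48*, *Mrpl51* and *Mrps33*, and 3 of *Mrps36*, the row under the minimum. Reads that match a gene and its copy equally are left out by the counting software at its default settings, so these levels are uncertain. Ranked from the highest level per kb in Ncr1+/+ ILC1s, *Mrpl23*, *Mrps33* and *Mrpl48* were at 77, 76 and 71. *Mrpl51* and *Mrpl27* were further up, at 54 and 37. The median of the 5 was 4.04 CPM per kb and that of the other members 15.2 CPM per kb. The part of the copies in these levels was not tested.

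The members lie on 17 chromosomes. Chromosome 11 holds 11 of them, or 14.3% against 8.60% of all tested genes, and chromosome 17 holds 8, or 10.4% against 5.45%. On chromosome 7, which carries *Ncr1*, there are 6 members, the nearest of them, *Mrps12*, 25.2 Mb away.

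Genes that serve the mitochondrial ribosome were examined as lists. The 5 tested subunits whose symbols lie outside the pattern, 16 mitochondrial translation factors and 25 genes of ribosome assembly gave 46 genes, none with an adjusted p-value under 0.05 (lowest 0.304, edgeR's quasi-likelihood test) and 6 with an unadjusted one, where 11.4% of all tested genes passed the latter. The 6 were *Ptcd3*, *Oxa1l*, *Slirp*, *Dhx30*, *Rpusd4* and *Tfam*, with log2 fold changes of 0.26, -0.20, -0.58, -0.15, -0.25 and 0.21, named after their values were seen. The median log2 fold changes of the 3 lists were 0.11, 0.04 and -0.02.

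Of these 46 genes, *Gfm1*, which encodes an elongation factor of mitochondrial translation, was the only one without overlap between the genotypes, where 3.11% of all tested genes had none, and it was named after its values were seen. It had 31.7, 33.0, 38.5, 38.2 and 36.6 CPM in Ncr1gfp/gfp and 39.0, 39.8, 41.3, 39.6 and 38.8 CPM in Ncr1+/+ replicates 1 to 5. The ranges lay close together, and the log2 fold change was -0.16 (SE 0.09, adjusted p = 0.535, edgeR's quasi-likelihood test). The summed level of the assembly genes was 531 to 554 CPM in Ncr1gfp/gfp and 555 to 573 CPM in Ncr1+/+ ILC1s, a ratio of 0.968, given as a description. That of the translation factors was 398 to 433 CPM against 413 to 447 CPM, and that of the further subunits 146 to 165 CPM against 146 to 157 CPM, both with overlap.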

How the data were processed

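RNA of sorted liver ILC1s was amplified from polyA tails and read from 1 end for 51 cycles. Per the study's methods, the authors trimmed reads with Trimmomatic and fastp, aligned the trimmed reads by STAR and deposited raw HTSeq gene counts, 1 column per library. By default, HTSeq takes only same-strand reads and leaves out those with several matches. The deposited table also gives exon lengths and coordinates, with no build named. The methods name mm10 for the alignment, but the listed coordinates differ from that build and are not mm10 positions. From these counts, genes were kept by filterByExpr, scaled by TMM and tested by edgeR's quasi-likelihood test (edgeR 4.0.16, R 4.3.3) with Benjamini-Hochberg adjustment over all 11463 tested genes. Intervals are 95%. Exact permutation tests were two-sided, and their smallest possible p is 0.00794. Levels of different genes were compared as CPM per kb of exon. Alternatives used DESeq2 1.42.0, limma 3.58.1, other filters, scalings and memberships, a replicate block, and 1 library fewer. The code was tested on simulated data. The floor of 3 counts covers counting error only.

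The members and the lists were chosen with earlier results of these data known, and subunit and class were assigned from general knowledge. Members were named if they had the 5 highest or lowest fold changes, the 5 highest or 3 lowest levels per kb, a role that sets them apart, or a library far from the rest of its genotype, or if they passed the adjusted threshold or did not overlap; of pathway genes, only those under the adjusted threshold, with exceptions stated. *Mrps11* was named as the neighbour of *Mrpl46*, and *Mrpl48* and *Mrpl51* for their pseudogenes, after values were seen. All 77 symbols matched RefSeq for GRCm38.p6, which was used for names only. Sequences were not used here.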

Additional observations from a re-analysis of the deposited data

Results flagged for a closer look

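In 8 of the 154 sets of 5 libraries (77 genes in each genotype), 1 library lay far from the other 4 by Dixon's test at its 95% critical value, where chance alone flags about 1 in 20, or 7.7. Ncr1gfp/gfp replicate 1 was low for *Mrpl15* (22.7 CPM, the nearest other library at 26.9) and for *Mrps31* (9.65 CPM, nearest 13.7), and high for *Mrpl35* (20.4 CPM, nearest 13.7). Ncr1gfp/gfp replicate 5 was low for *Mrpl38* (13.7 CPM, nearest 16.7). Ncr1+/+ replicate 1 was high for *Mrpl18* (37.3 CPM, nearest 26.5) and low for *Mrpl41* (14 CPM, nearest 21.8) and *Mrps12* (7.85 CPM, nearest 11.2). Ncr1+/+ replicate 5 was high for *Mrpl46* (13.8 CPM, nearest 11.2).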

How the results depend on the processing

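The counts of 0 members called and 0 members under an adjusted p of 0.05 were the same in each alternative run, and the median log2 fold change stayed within 1 SD of its libraries in all 19 alternatives (-0.022 to 0.033 with each library left out). The lowest adjusted p of a member lay between 0.177 and 0.532, that of *Mrps5* in each test except the one without Ncr1gfp/gfp replicate 1 (*Mrpl4*, 0.312). The number of members without overlap was 0 to 1 with each library left out: *Mrpl23* (higher) without Ncr1gfp/gfp replicate 4, *Mrps31* (lower) without Ncr1+/+ replicate 1 and *Mrpl2* (lower) without Ncr1+/+ replicate 4. For all genes, the count of 84 calls became 128 with DESeq2, 138 with the likelihood ratio test, 131 without a filter, 23 above an absolute log2 fold change of 1, and 60 to 98 with each library left out. Of 458 values of single genes, 13 turned sign and none crossed the threshold. With limma-voom and quality weights, *Mrpl18* was at 0.054 and *Mrps12* at -0.029, and *Mrpl23* moved from 0.81 to 0.14. With each library left out, the log2 fold change ran from -0.073 to 0.027 for *Mrpl12*, -0.093 to 0.097 for *Mrpl18*, -0.040 to 0.0060 for *Mrpl24*, -0.43 to 0.041 for *Mrps33*, -0.17 to 0.015 for *Mrpl41* and -0.060 to 0.091 for *Mrps12*. The cause was not tested. Replicate numbers 1 to 5 occur in both genotypes, and whether equal numbers pair the libraries is not known. The correlations of deviations between equal numbers were -0.0332 to 0.0593, and only number 1 correlated best with its own number. Such correlations cannot exclude a pairing. With the replicate number as a block, 0 members and 87 genes in all were called, and the members' median was -0.0059. A requirement of 10 counts in every library left 76 members. Depth limits the 6 members under 1000 counts most.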
